A study of Mus musculus with 19 samples.

Results

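The 10 genes described here encode apolipoproteins, the protein components of the particles that carry lipid in blood: Apoa1, Apoa2, Apoa4, Apoa5, Apob, Apoc1, Apoc3, Apoe, Apoh and Apom. They were taken by gene symbol from the count table of embryonic livers, and by Ensembl identifier from the files of allograft tumours. All 10 were present in both, among 13549 genes of the embryo table and 17606 of the tumour files, and all 10 passed the filters on low values. The genes were picked by name, but with earlier results of these data known.

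The series modelled fibrolamellar hepatocellular carcinoma in mice. In that tumour of the liver, part of the chaperone DNAJB1 is joined to the catalytic subunit of protein kinase A. In its first experiment, livers of E18.5 embryos were sequenced from 5 controls (numbered 1 to 5) and 4 embryos labelled DNAJ1B-PKA_Overexpression (numbered 6 to 9, called fusion livers below). The fusion livers came from crosses of Rosa26 LSL-DNAJB1-PKA-GFP mice, which carry a Cre-dependent fusion and GFP cassette in the Rosa26 locus, to Alb-Cre mice, in which the Albumin promoter drives Cre from mid-gestation. The labels do not say which of these alleles the controls carried. In its second experiment, capsules of FL8 cells, a single cell line, were grown under the skin of NSG mice, which lack lymphocytes but keep myeloid cells. Once tumours averaged 75 mm3, 5 received vehicle and 5 received 75 mg/kg palbociclib, an inhibitor of the cell-cycle kinases CDK4 and CDK6, by mouth on 3 days followed by 4 days without treatment.

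Apolipoproteins are made mostly by the liver and intestine. ApoB forms the scaffold of very low and low density lipoproteins, with 1 molecule to a particle, whereas ApoA-I is the main structural protein of high density lipoprotein (HDL) and activates the enzyme LCAT. The smaller proteins move between particles and set how lipases and receptors handle them: ApoC-III slows clearance and ApoA-V favours it, and ApoE is a ligand of several lipoprotein receptors. In fetal liver, hepatocytes share the organ with blood-forming cells, and in bulk libraries fewer hepatocytes and less RNA per hepatocyte cannot be told apart.

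Of the genes, 4 lie within 43.3 kb of mouse chromosome 9 (mm10, 46228580 to 46271919) in the order Apoa1, Apoc3, Apoa4 and Apoa5. Apoa1, Apoa4 and Apoa5 are on the plus strand and Apoc3 is on the minus strand. Apoe and Apoc1 are neighbours on the minus strand of chromosome 7, where Apoc4 and Apoc2 follow and the 4 genes span 27.6 kb (19671579 to 19699188). The other 4 members lie apart: Apoa2 on chromosome 1 (171225054 to 171226379), Apob on chromosome 12 (7977648 to 8016835), Apoh on chromosome 11 (108343354 to 108414396) and Apom on chromosome 17 (35128997 to 35132050).

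Apoa1 and Apoa4, whose bodies are 10.2 kb apart, were the members that differed in opposite directions between the embryo groups. The bases before their GENCODE M21 gene starts are therefore shown, plus strand, 5′ to 3′. They were cut from RefSeq promoter windows on GRCm38.p6 (the mm10 assembly), which run from 250 bases before to 50 after the RefSeq start site. Both GENCODE starts lie before that site, so the printed bases stop short of it. Capitals mark the one match to the motifs searched.
Apoa1, chr9:46228380-46228579: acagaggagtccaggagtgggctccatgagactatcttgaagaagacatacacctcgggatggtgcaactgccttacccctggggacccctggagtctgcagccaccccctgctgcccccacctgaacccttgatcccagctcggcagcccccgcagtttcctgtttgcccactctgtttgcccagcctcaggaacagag
Apoa4, chr9:46240594-46240695: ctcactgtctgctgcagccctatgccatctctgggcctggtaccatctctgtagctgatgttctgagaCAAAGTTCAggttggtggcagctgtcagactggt
The promoter table held 8 of the 10 members, all but Apoc1 and Apoc3. Searched on both strands of the whole promoter windows, which run on past the start site, the HNF4 motif CAAAGTTCA was found in Apoa4 alone of those 8 and in 0.390% of all 32851 promoters. Its variant CAAAGTCCA matched none of the 8 (0.475% of all promoters). The cAMP response element TGACGTCA, bound by CREB factors, also matched none (1.79% of all), and its shorter form TGACG, which the longer motif contains, matched Apoa2 (20.8% of all). These matches describe letters in a window and do not show binding. Only these exact strings were searched, so the lack of a match does not show that a site is absent.

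Embryo libraries held 7660736 to 23144891 counted reads in controls and 13527381 to 45591301 in fusion livers, and tumour libraries 2955729 to 33863983 with vehicle and 24857723 to 43141761 with palbociclib. Prkaca, the gene of the catalytic subunit in the fusion, measured 36.3 to 50.5 counts per 1000000 reads (CPM) in controls and 52.0 to 114 in fusion livers, without overlap (edgeR log2 difference 0.78 ± 0.22 SE, adjusted p = 0.0379). The 9 embryo libraries separated by the share of reads on 81 ribosomal protein genes: controls 1 and 2 and fusions 8 and 9 had 9.68 to 10.1%, the other 5 had 6.16 to 7.85%. Xist, transcribed in female cells, was at 162 to 448 CPM in controls 1 and 2 and fusions 6, 7 and 8 and at no more than 0.534 CPM elsewhere. Of the 5 libraries with the low ribosomal share, controls 3 to 5 were thus low and fusions 6 and 7 high in Xist. Within them, genotype and Xist state cannot be told apart. Among tumours, mitochondrial genes held 46.6% of the reads of vehicle 1 and 1.24 to 6.47% elsewhere, and vehicle 5 had by far the fewest reads. Hepatocyte markers were detected in both tissues: all 14 in the embryo table and all 15 in the tumour files had reads in every library.

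In the E18.5 liver, the fusion went with less Apoa1 and more Apoa4, and the other 8 apolipoprotein genes did not pass the test. Apoa1, the most abundant of the 10, fell to 0.541 times its control level, and Apoa4, the least abundant, rose 3.18-fold. The edgeR quasi-likelihood test called these 2 of 10 members at an adjusted p under 0.05, when 12.8% of the 13316 genes tested were called. In each direction 1 member was called, against 5.99% of all genes higher and 6.81% lower, so the count of called members was near the background. In all, 9 of the 10 had a lower fitted level in fusion livers, while 48.25% of all genes tested had a higher one. Of the 9, Apoe (−0.028) and Apob (−0.084) were near 0. Apoe changed sign in 8 of 18 alternatives, and Apob, Apoc3 and Apoa5 did so in 2 each. The median log2 difference was −0.35 over the members and −0.014 over all genes tested. The members' median was −0.17 without control 2 and −0.19 without fusion 6, −0.20 with limma-voom and −0.22 in the high-share libraries alone. At an unadjusted p under 0.05 there were 4 members (Apoa1, Apoa4, Apoh and Apom), against 29.3% of all genes. The fusion and control ranges did not overlap for 2 members, Apoa1 and Apoa4, and for 16.5% of all genes.

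**Figure D1:**
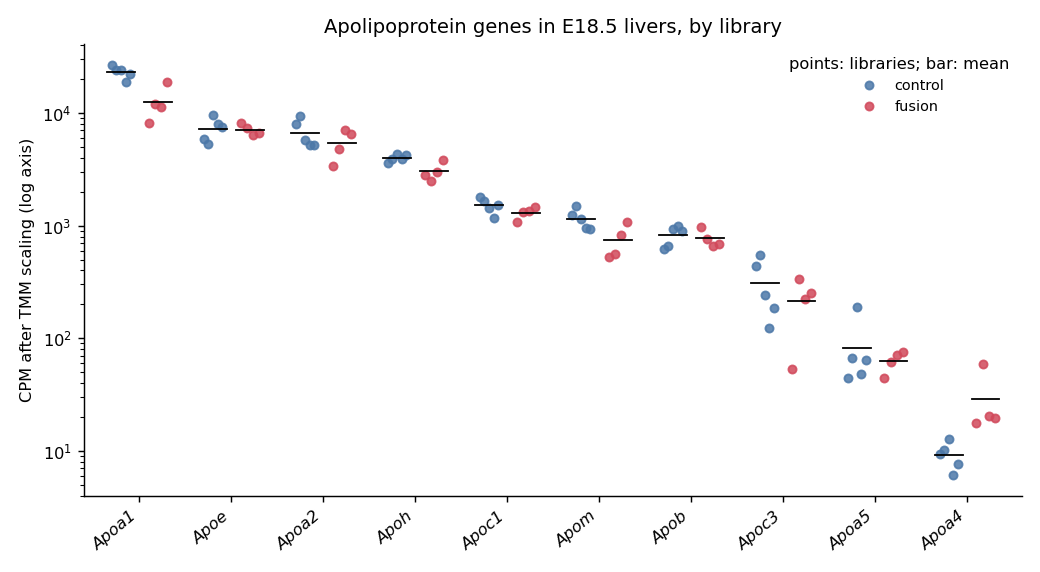
CPM after TMM scaling (a library-size correction) on a log axis for the 10 apolipoprotein genes, with 1 point for each of 5 control and 4 fusion livers and a bar at the group mean. Apoa1 is lower and Apoa4 higher in every fusion library than in every control library, and the groups overlap for the other 8 genes.

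Apoa1, Apom and Apoa2 encode proteins of HDL. In CPM after TMM scaling, Apoa1 measured 26911, 23865, 24280, 18750 and 22092 in controls 1 to 5 and 8076.5, 12123, 11297 and 18664 in fusions 6 to 9. Every fusion liver was below every control, but fusion 9 missed control 4 by less than 1% of its level, while fusion 6 was lowest. The means were 23180 ± 3017 (SD, n = 5) and 12540 ± 4440 (SD, n = 4), a log2 difference of −0.89 ± 0.25 (SE; edgeR adjusted p = 0.0382). Each value rested on at least 147405 reads, so the spread between livers, not counting, set the error. The call was lost when the Xist state was added to the fit (adjusted p = 0.0608), and when any of controls 1, 2, 3 or 5 or fusions 6, 7 or 8 was left out (adjusted p up to 0.0989), while the difference stayed between −1.14 and −0.71. Within the split by ribosomal share it was −0.75 ± 0.23 (adjusted p = 0.0462) in controls 1 and 2 against fusions 8 and 9, and −1.10 ± 0.22 (adjusted p = 0.00741) in the other 5 libraries. In those 5, genotype and Xist state cannot be told apart.

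Prkaca and Apoa1 can be set side by side in the 4 fusion livers. Fusion 6 had the highest Prkaca (114 CPM) and the lowest Apoa1, and fusion 9 had the lowest Prkaca (52.0 CPM) and the highest Apoa1. Fusions 7 and 8, with Prkaca at 72.4 and 53.8 CPM, were between them at 12123 and 11297 CPM of Apoa1. Fusion 7 thus had more of both than fusion 8. Fusions 6 and 7, the higher in Prkaca, were also those with the low ribosomal share, and fusion 9 was the only fusion liver low in Xist. The order of fusions 6 and 9 was noticed after the values were seen, and with 4 livers no correlation is given.

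Apom, which carries sphingosine-1-phosphate on HDL, measured 1237, 1500, 1145, 960 and 939 CPM in controls and 531, 560, 829 and 1076 CPM in fusion livers. Fusions 6, 7 and 8 were below every control, and fusion 9 was inside the control range. Its log2 difference was −0.63 ± 0.23 (SE), which did not pass over all genes (edgeR adjusted p = 0.102). With the ribosomal split as a covariate it was −0.72 (adjusted p = 0.0012), in the low-share libraries alone −0.90 (adjusted p = 0.0020), in the high-share libraries −0.51 (adjusted p = 0.0626), and without fusion 9 it was −0.85 (adjusted p = 0.0329). Apom did not pass in 15 of the 18 alternatives. The low-share value mixes genotype with Xist state.

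Apoa2, the second protein of HDL, ranged from 5233 to 9345 CPM in controls and from 3363 to 7089 CPM in fusion livers. Its 2 highest controls were controls 1 and 2 and its 2 highest fusion livers were 8 and 9, the libraries with the high ribosomal share. The log2 difference was −0.30 ± 0.26 (SE; edgeR adjusted p = 0.489) as fitted, and −0.38 ± 0.13 (adjusted p = 0.0357) with the split as a covariate. Of the members, Apoa2, Apoh and Apom passed with that covariate and did not pass without it. The covariate raised the number of called members from 2 to 5 and that of all genes from 1704 to 4397, which is 32.7% of those tested.

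Within the chromosome 9 cluster the genes did not move together. Apoa4, an activator of LCAT made chiefly in intestine and induced in liver on fasting, measured 9.39, 10.2, 12.7, 6.08 and 7.68 CPM in controls and 17.7, 58.6, 20.5 and 19.8 CPM in fusions 6 to 9. All 4 fusion livers were above all controls, and fusion 7 was far above the other 3. The means were 9.20 ± 2.5 (SD, n = 5) and 29.1 ± 19.7 (SD, n = 4), a log2 difference of 1.67 ± 0.36 (SE; edgeR adjusted p = 0.0124), from 73 to 269 reads a control library and 268 to 987 a fusion library. The call was kept in all 18 alternatives run, with differences of 1.06 to 2.09, and was 1.08 ± 0.21 (adjusted p = 0.0154) without fusion 7. Apoa4 overlaps the antisense genes Gm10680 and Gm47528, and whether the counting used strand is not given in the sources used here, so their reads cannot be told apart from those of Apoa4.

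Apoc3, which inhibits lipoprotein lipase and hepatic uptake, varied more between libraries than between groups. It measured 435, 553, 243, 122 and 187 CPM in controls and 53.4, 338, 222 and 251 CPM in fusion livers, with a log2 difference of −0.51 ± 0.51 (SE; edgeR adjusted p = 0.548). The 2 highest controls were the high-share libraries 1 and 2, and the lowest value of all was fusion 6. The 2 sides of the split gave unlike values, −1.05 ± 0.16 (adjusted p = 0.00386) in the high-share libraries and 0.079 ± 0.57 (adjusted p = 0.933) in the low-share ones. The difference between the sides did not pass (−1.15 on the log2 scale, adjusted p = 0.448).

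Apoa5, which promotes lipolysis of triglyceride-rich particles, measured 44.4, 66.8, 190.0, 47.8 and 64.8 CPM in controls and 44.5, 61.6, 71.4 and 75.2 CPM in fusion livers. Control 3 stood alone, and the other 4 controls covered nearly the range of the fusion livers. The log2 difference of −0.39 ± 0.39 (SE; edgeR adjusted p = 0.547) became 0.19 (adjusted p = 0.590) without control 3. Apoa5 overlaps the antisense gene Gm47544.

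**Figure D2:**
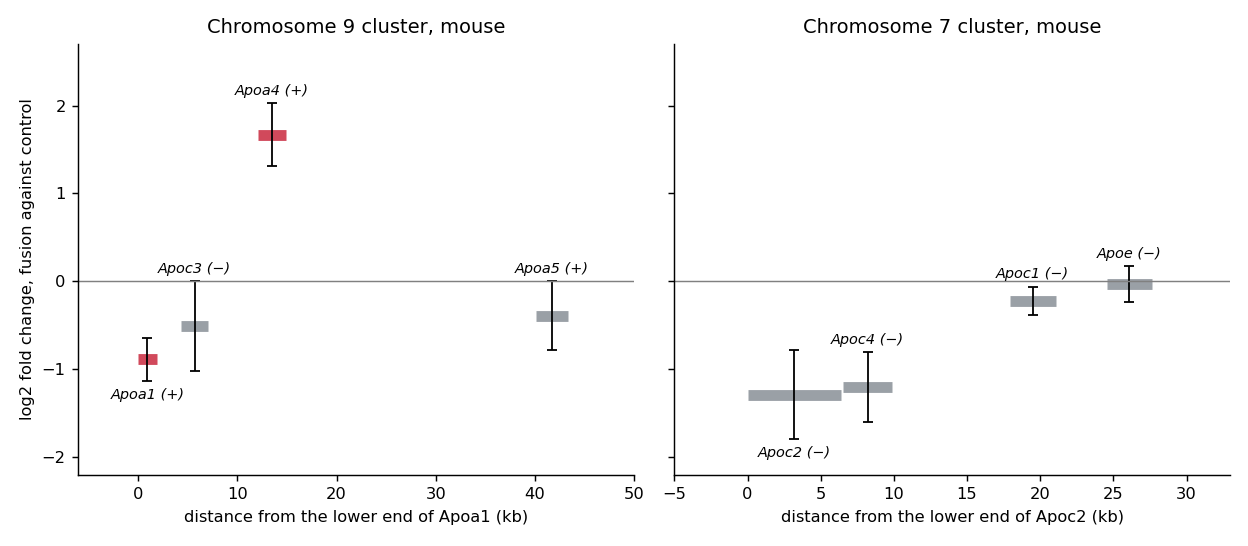
Log2 difference of fusion against control livers (edgeR; vertical bars, SE) for the apolipoprotein genes of the chromosome 9 and chromosome 7 clusters, each drawn to scale from its first to its last base in kb, with its strand in brackets; red marks an adjusted p under 0.05. Apoa1 (−0.89) and Apoa4 (1.67) lie on opposite sides of 0, and no gene of the chromosome 7 cluster is marked.

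On chromosome 7, Apoe, the receptor ligand also made by macrophages, measured 5855, 5313, 9648, 7914 and 7576 CPM in controls and 8145, 7344, 6336 and 6664 CPM in fusion livers. The fusion range lay wholly inside the control range, and the log2 difference was −0.028 ± 0.20 (SE; edgeR adjusted p = 0.948). Its sign turned positive in 8 of the 18 alternatives, none of which passed. Because Apoa1 fell, the ratio of Apoe to Apoa1 in CPM, which is not corrected for length, was 0.218 to 0.422 in controls and 0.357 to 1.01 in fusion livers, overlapping at fusion 9. Summed CPM of 13 macrophage markers was 1398 to 1624 in controls and 1239 to 1321 in fusion livers, with 0 of the 13 called and none at 0. The part of macrophages in the Apoe level was not tested.

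Apoc1, which restrains lipoprotein uptake and activates LCAT weakly, ranged from 1159 to 1812 CPM in controls and from 1087 to 1454 CPM in fusion livers (log2 difference −0.22 ± 0.16 SE; edgeR adjusted p = 0.40). Its neighbours further along the cluster, which are not among the 10, had larger differences that did not pass. Apoc4 measured 427 to 804 CPM in controls and 95.2 to 484 CPM in fusion livers (−1.20 ± 0.40, adjusted p = 0.0699). Apoc2, the cofactor of lipoprotein lipase, was at 0.418 to 4.80 CPM in controls and 0.460 to 1.72 CPM in fusion livers (−1.29 ± 0.51, adjusted p = 0.118), on as few as 3 reads. How reads shared with the overlapping Apoc4 to Apoc2 read-through gene were counted is not given in the sources used here, so the Apoc2 level is uncertain.

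Apob, the scaffold of secreted triglyceride-rich particles, measured 614 to 989 CPM in controls and 659 to 980 CPM in fusion livers, with nearly the same range in both groups. Its log2 difference was −0.084 ± 0.19 (SE; edgeR adjusted p = 0.807). Mttp, whose product loads lipid onto ApoB, had a difference of −0.16 ± 0.11 (adjusted p = 0.353).

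Apoh, or β2-glycoprotein I, a phospholipid-binding plasma protein, measured 3592, 3922, 4358, 3865 and 4262 CPM in controls and 2786, 2474, 3008 and 3830 CPM in fusion livers. Fusions 6, 7 and 8 were below every control and fusion 9 was inside their range, as for Apom. The log2 difference was −0.40 ± 0.17 (SE; edgeR adjusted p = 0.136). Apoh did not pass in 14 of the 18 alternatives and passed in 4. It passed with DESeq2 (adjusted p = 0.0373), with limma-voom and library weights (0.0378), with the split as a covariate (0.0304), and in the low-share libraries alone (−0.66, adjusted p = 0.0115). Those 4 fits called 18.4, 17.7, 32.7 and 21.8% of all genes in turn, against 12.8% in the main fit. In the high-share libraries the Apoh difference was −0.13 ± 0.17 (adjusted p = 0.633). The low-share value mixes genotype with Xist state, as for Apom. The 5′ end of Prkca overlaps Apoh on the other strand.

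**Figure D3:**
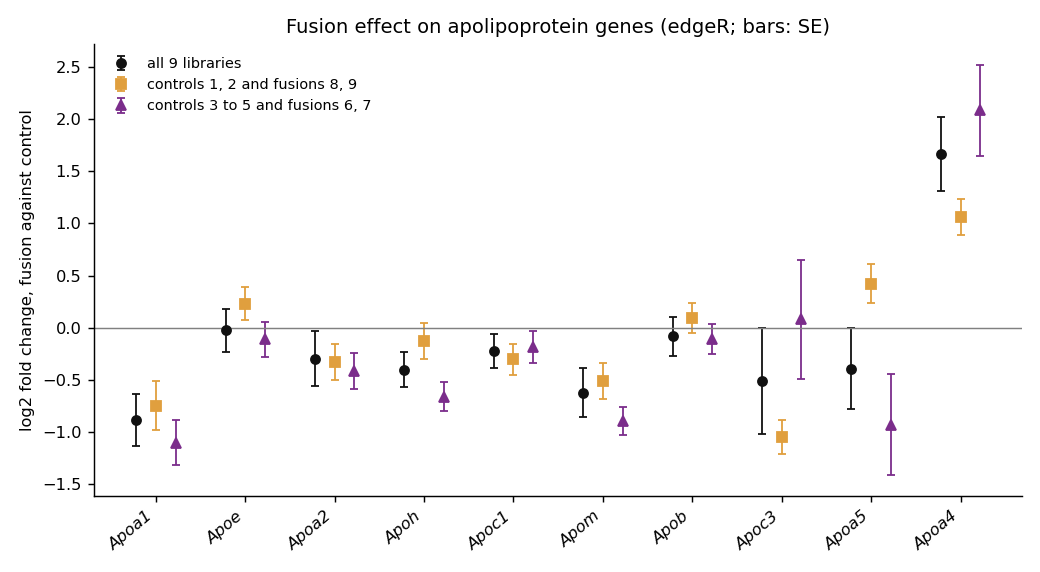
Log2 difference of fusion against control livers (edgeR; bars, SE) for the 10 genes in all 9 libraries (black), in the 4 libraries with a high ribosomal share (orange) and in the 5 with a low share (purple). Apoa1, Apoa2, Apoc1, Apoh and Apom are below 0 and Apoa4 is above 0 in all 3 fits, whereas Apoe, Apob, Apoc3 and Apoa5 change sign between the 2 sides of the split.

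The test of a genotype difference that itself varied between the sides of the split, added after the data were seen, called 0 of the 10 members and 0.185% of 13509 genes (edgeR adjusted p 0.272 to 0.919 over the members). By library, fusion 6 was lowest of all 9 for Apoa1, Apoa2, Apoc1, Apoc3 and Apom. Fusion 9 was the fusion liver closest to the controls for Apoa1, Apoh and Apom.

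Together the 10 genes took 4.48% ± 0.30 (SD, n = 5) of control reads, from 4.11 to 4.93%, and 3.13% ± 0.50 (SD, n = 4) of fusion reads, from 2.64 to 3.83%. Apoa1 made up 77.7% of that gap, going from 2.30 to 1.25% of reads, and Apoa2 (8.82%) and Apoh (7.17%) came next. The 2 called genes thus differed greatly in weight: Apoa4 went from 0.000914 to 0.00294% of reads.

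The lists of genes around the members were drawn up with earlier results of these data known. Of 17 other apolipoproteins and lipid carriers tested, 1 rose and 5 fell, which is 35.3% against 12.8% of all genes, with a median log2 difference of −0.58 against −0.014. Those that fell included Apon (−1.62 ± 0.29, adjusted p = 0.00512), Apol7a (−1.25 ± 0.24, adjusted p = 0.00723), Saa4, an HDL protein (−1.16 ± 0.21, adjusted p = 0.00547), Apof, which modulates lipid transfer (−0.62 ± 0.16, adjusted p = 0.0293), and Clu, the chaperone also called ApoJ (−0.58 ± 0.17, adjusted p = 0.0401), all by edgeR. Apoo, whose product sits in mitochondria, rose (0.98 ± 0.22, adjusted p = 0.0159).

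For assembly and secretion of ApoB particles, 1 of 23 genes tested rose and 2 fell (median −0.16). This share of called genes, 3 of 23, is close to the 12.8% of all genes. Soat2, which esterifies the cholesterol packed with ApoB, fell from 20.9 ± 2.32 to 12.2 ± 2.98 CPM (SD, n = 5 and 4), and Sort1, a sorting receptor that binds ApoB, from 42.1 ± 6.04 to 30.2 ± 3.05 CPM. Tm6sf2, needed for lipid loading of those particles, rose from 2.41 ± 0.40 to 5.65 ± 3.09 CPM (edgeR adjusted p 0.0132, 0.0313 and 0.0382 in turn). Of 16 receptor and clearance genes, 2 rose and none fell (median −0.040), or 12.5% called, again near 12.8%: Vldlr, a receptor of triglyceride-rich particles, by 2.17 ± 0.24 and Sdc1, a heparan sulfate proteoglycan that captures remnants, by 1.08 ± 0.11 on the log2 scale. Both passed in edgeR (adjusted p = 0.000373 and 0.000164).

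Of 15 lipase and HDL remodelling genes, 2 rose and 3 fell. This is 33.3% called against 12.8% of all genes, with a median of −0.15 against −0.014. The 2 that rose were the partners Abcg5 (2.61 ± 0.31) and Abcg8 (2.13 ± 0.31), which export sterols into bile. Those that fell were Gpld1, a phospholipase that travels on HDL (−1.28 ± 0.21), Angptl4, an inhibitor of lipoprotein lipase (−0.84 ± 0.17), and Pltp, which moves phospholipid onto HDL (−0.58 ± 0.15).

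Of 29 transcription factors that act on apolipoprotein genes, 3 rose and 4 fell. This is 24.1% called against 12.8% of all genes, with a median of 0.0014 against −0.014. Ppargc1a, a coactivator induced by cAMP and fasting, rose from 8.19 ± 1.00 to 61.7 ± 16.3 CPM (log2 difference 2.92 ± 0.18, edgeR adjusted p = 8.45e-06). Esrra, its nuclear receptor partner, rose by 0.79 ± 0.12, while Mlxipl, the carbohydrate response factor, fell by 1.39 ± 0.19, Foxa2 by 0.80 ± 0.19 and Nr1h4, the bile acid receptor that represses Apoc3 and Apoa1, by 0.66 ± 0.15, all on the log2 scale. Hnf4a, an activator of the chromosome 9 cluster, was at 81.5 to 155 CPM in controls and 112 to 198 CPM in fusion livers (0.24 ± 0.24, adjusted p = 0.552). Creb3l3, an activator of Apoa4 and Apoa5 in liver, had a difference of 0.0014 ± 0.15 (adjusted p = 0.996).

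Markers of the cells a fetal liver can hold were read beside these results. The summed CPM of 14 hepatocyte markers was 154760 to 206770 in controls and 181620 to 227910 in fusion livers, with medians of 196490 and 192720 CPM. Most of that sum was Alb, Afp, Trf and Ahsg. Between controls and fusion livers the Afp median rose from 39454 to 71242 CPM. The medians of Alb (62795 and 52813 CPM), Trf (38900 and 28944 CPM) and Ahsg (25689 and 18217 CPM) were lower in fusion livers. Similar sums thus do not show equal hepatocyte content. Of the 14, 9 had a lower and 5 a higher fitted level in fusion livers (median −0.15 against −0.014 over all genes). The 4 called (28.6% against 12.8% of all genes) were all higher, among them Afp (0.86 ± 0.20, adjusted p = 0.0178) and Cps1 (0.85 ± 0.18, adjusted p = 0.0115). Trf, the transferrin gene, was lower without overlap, at 35085 to 40869 CPM in controls and 18481 to 31285 CPM in fusion livers (−0.52 ± 0.21, adjusted p = 0.119). So was Ttr, the transthyretin gene, at 3632 to 5597 CPM and 2865 to 3630 CPM (−0.45 ± 0.18, adjusted p = 0.115). Alb had a difference of −0.029 ± 0.29 and Fga, a fibrinogen chain, one of −0.82 ± 0.28 (adjusted p = 0.0782). The part of hepatocyte number in the Apoa1 fall was not tested. Sums of 10 blood-forming markers overlapped (2805 to 4844 and 3056 to 4215 CPM, 0 called). Sums of 6 bile duct markers did not (61.1 to 90.0 against 24.7 to 52.6 CPM). Of these markers 3 were called, all lower, which is 50% against 12.8% of all genes. A list for intestine-like and yolk-sac-like epithelium, tissues that make Apoa4, measured 417 to 509 CPM in controls and 81.4 to 349 CPM in fusion livers over 4 genes, nearly all of it Rbp2, which fell (−1.58 ± 0.41, adjusted p = 0.0276). Of the others, Muc13 rose (1.79 ± 0.25, adjusted p = 0.00148), Fabp2 and Vil1 were not called, and Cdx2, Alpi and Lgals4 were not in the table. None of 8 endothelial, 1 fat, 2 muscle and 3 skin markers tested was called. Of 10 fibroblast and stellate cell markers 2 were called (20%, against 12.8% of all genes), both lower. The part of the bile duct and epithelial markers in the members' values was not tested.

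In FL8 tumours no apolipoprotein gene passed the test between palbociclib and vehicle. Tumour values are CPM as deposited, and limma on log2(CPM + 1) called 0 of 10 members and 0% of 12829 genes tested, with a lowest adjusted p of 0.953. At an unadjusted p under 0.05 there was 1 member, Apoa5, against 4.57% of all genes (586 genes). The treatment groups overlapped for all 10 members, and 0.935% of all genes had groups that did not. On recovered read counts edgeR called 0 members and 0 genes, and DESeq2 called 0 members and 8 genes.

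By sign, 9 of the 10 members had a higher fitted level with palbociclib, with a median log2 difference of 0.34 against 0.14 over all genes. That background shift depended on scaling: TMM factors brought the median of all genes to 0.0069 and of the members to 0.19, and the share of genes with a higher level from 68.8 to 51.0%. Relative to all genes, the members' median was 0.19 higher as deposited and 0.18 higher with TMM factors, but 0.084 higher without vehicle 1, 0.067 without vehicle 2, 0.12 without palbociclib 2 and 0.36 without vehicle 5. Among vehicle tumours, vehicle 1 was the lowest for 9 members (vehicle 2 for Apoa5), and vehicle 5 was the highest for 7 (vehicle 4 for Apob, Apoa4 and Apoa5).

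Apoa1 measured 12055, 30375, 34470, 40186 and 46612 CPM in vehicle tumours 1 to 5 and 24659, 44664, 30633, 38103 and 32578 CPM in palbociclib tumours 1 to 5. All palbociclib values lay within the vehicle range, whose ends were vehicle 1 and vehicle 5. The log2 difference was 0.16 ± 0.55 (SE; limma adjusted p = 0.979), and without vehicle 1 it was −0.16. With the mitochondrial genes taken out of the totals, vehicle 1 measured 22573 CPM and was still the lowest of the 10.

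Apob had the largest difference, 0.71 ± 0.38 (SE; limma adjusted p = 0.953), from 913, 2682, 2442, 3713 and 2675 CPM with vehicle to 4592, 3140, 4095, 3848 and 3114 CPM with palbociclib. Without vehicle 1 the difference was 0.39. Apoa5 measured 18.0, 17.7, 26.6, 52.9 and 48.4 CPM with vehicle and 45.8, 60.5, 51.3, 53.1 and 34.0 CPM with palbociclib, a log2 difference of 0.69 ± 0.32 (limma adjusted p = 0.953). Vehicles 4 and 5 were inside the palbociclib range and the other 3 were below it.

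Apoa4 measured 438, 910, 1228, 1553 and 1193 CPM with vehicle and 1857, 1193, 1379, 942 and 1215 CPM with palbociclib (log2 difference 0.39 ± 0.34, limma adjusted p = 0.953, and 0.099 without vehicle 1). The embryo genotype difference in this gene has no counterpart to test here, since all 10 tumours came from 1 cell line. Apoe measured 14901 to 35598 CPM with vehicle and 20246 to 36397 CPM with palbociclib (−0.0063 ± 0.50, adjusted p = 0.999), and its sign changed on leaving out single tumours. The remaining members had differences between 0.21 (Apoh) and 0.56 (Apoa2), with Apoc1 at 0.24, Apom at 0.28 and Apoc3 at 0.53 and standard errors of 0.29 to 0.41. Without vehicle 1 these were −0.092 for Apoh, 0.29 for Apoa2, 0.044 for Apoc1, 0.13 for Apom and 0.17 for Apoc3, and without vehicle 5 they were 0.39, 0.80, 0.47, 0.47 and 0.91 in turn. For Apoc3 the vehicle range, 211 to 1680 CPM, enclosed the palbociclib range, 588 to 967 CPM.

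**Figure D4:**
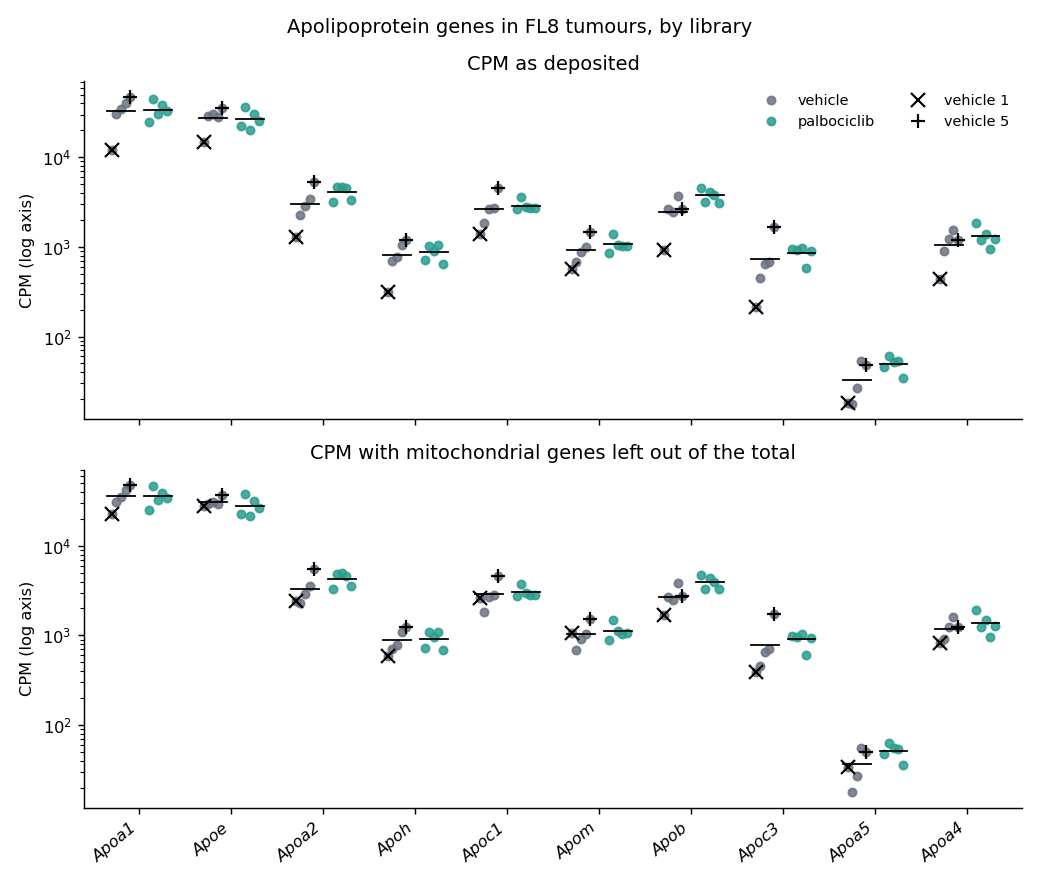
CPM on a log axis for the 10 genes in 5 vehicle and 5 palbociclib tumours (points, libraries; bars, group means), as deposited (top) and with mitochondrial genes left out of the total (bottom), with vehicle 1 (×) and vehicle 5 (+) marked. Vehicle 1 is the lowest or nearly the lowest vehicle tumour for every gene as deposited, and the treatment groups overlap for all 10 genes in both panels.

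Vehicle 1 also differed in its markers. Its summed macrophage markers (12 genes) reached 2495 CPM, with a vehicle median of 168 CPM and a palbociclib range of 147 to 450 CPM, and its hepatocyte markers (15 genes) were the lowest of the vehicle group at 32488 CPM, against 64664 to 95058 CPM with palbociclib. Without mitochondrial genes in the totals, those hepatocyte sums were 60835 CPM in vehicle 1 and 68096 to 98445 CPM with palbociclib, and the macrophage sum of vehicle 1 was 4672 CPM. As deposited, vehicle 1 was also the highest vehicle tumour for endothelial (196 CPM), fibroblast and stellate cell (298 CPM) and bile duct markers (132 CPM). The palbociclib ranges were 60.2 to 92.4, 69.0 to 232 and 30.9 to 93.4 CPM in turn. Blood-forming markers (12 genes) ran from 1352 CPM in vehicle 5 to 95955 CPM in vehicle 3, and from 1783 to 8464 CPM with palbociclib. The part of these cells in the members' values was not tested. The 10 genes took 3.21% of reads in vehicle 1 and 10.0% in vehicle 5, the ends of the vehicle range, and 6.17 to 9.71% with palbociclib. None of the 5 lists of related genes, nor of the 10 marker lists, had a called gene in tumours.

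Levels between genes were compared as CPM per kb of exon. In control livers the order was Apoa1 (18754), Apoa2 (12460), Apoe (3396), Apoh (2509), Apoc1 (2035), Apom (1141), Apoc3 (304), Apob (58.7), Apoa5 (32.8) and Apoa4 (5.07). Ranges over libraries overlapped between Apoa1 and Apoa2, Apoe and Apoh, Apoh and Apoc1, and Apob and Apoa5, so those neighbours are not ordered beyond their spread. Fusion livers had the same order of means, with Apoa1 (10146) and Apoa2 (10120) nearly equal, and with Apoa4 (16.1) close below Apoa5 (25.1) and overlapping it.

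In tumours the order of means was Apoa1, Apoe, Apoa2, Apoc1, Apom, Apoc3, Apoa4, Apoh, Apob and Apoa5 with either treatment. With palbociclib the neighbours whose ranges overlapped were Apom, Apoc3, Apoa4 and Apoh, each with the next, and with vehicle all did except Apoc1 with Apom and Apob with Apoa5. Apoa4 stood last in livers, at 5.07 CPM per kb in controls, and seventh in tumours, at 586 CPM per kb with vehicle and 726 with palbociclib. Apoh went the other way, from 2509 CPM per kb in control livers to 507 and 545 in tumours. Apob measured 58.7 CPM per kb in control livers and 178 and 270 in tumours. Embryo and tumour tables came from different library kinds and separate processing, so these levels are set side by side with no test.

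**Figure D5:**
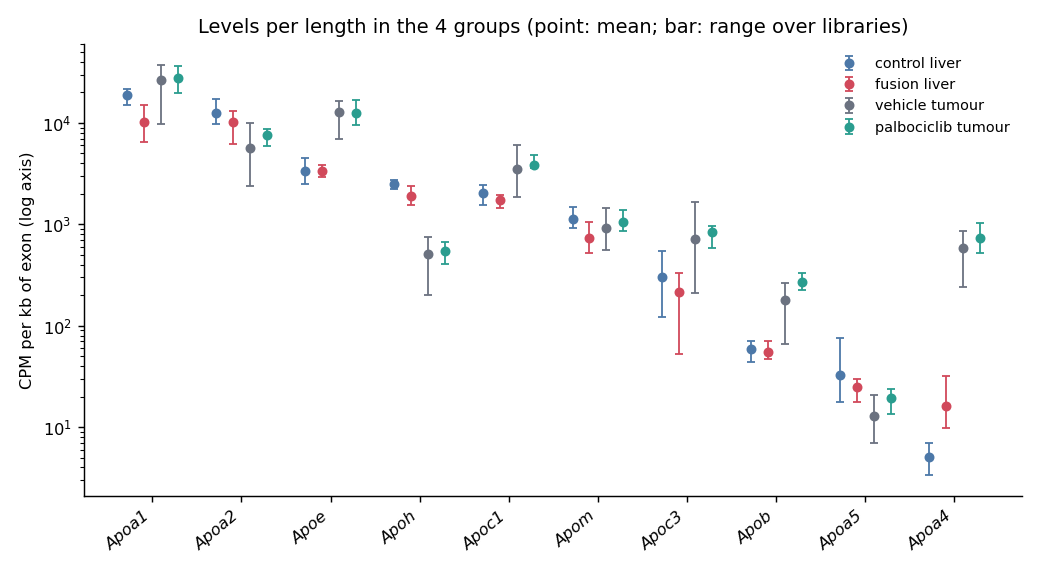
CPM per kb of exon on a log axis (points, group means; bars, range over libraries) for the 10 genes in control and fusion livers and in vehicle and palbociclib tumours, ordered by the control livers. Apoa4 is lowest in livers and mid-ranked in tumours, and Apoh is higher in livers than in tumours; livers and tumours were normalised separately.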

How the data were processed

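Polyadenylated RNA of 9 embryonic livers and RNA of 10 FL8 tumours were sequenced. The embryo table holds read counts per gene that the authors deposited (reads aligned with STAR 2.5.1b to mm10, per the submitters' processing notes). The tumour files hold CPM that the authors deposited, per the file headers (cutadapt 2.10, HISAT2, featureCounts and R 4.1.2, per the submitters' processing notes). Every tumour value was a whole number of reads within 0.1. A further 9 per-sample columns of the embryo table, a rescaling of its counts, were not used.

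Embryo counts were fitted with edgeR 4.0.16 (TMM factors, filterByExpr, quasi-likelihood test), tumour log2(CPM + 1) of genes averaging 1 CPM or more with limma 3.58.1 and a trended prior, in R 4.3.3. Benjamini-Hochberg adjustment ran over all genes tested, at 0.05. DESeq2 1.42.0, limma-voom, other scalings and filters, covariates and left-out libraries were alternatives. On simulated data the embryo fit, on 13214 genes past the filter, recovered 198 of 199 genes changed by 2 on the log2 scale (5 unchanged genes called), and the tumour limma fit, on 12829 genes past the filter, 133 of 182 (10 unchanged called). Smaller changes, such as −0.89 for Apoa1 in embryos or 0.71 for Apob in tumours, were not simulated. Nor were the ribosomal split and the mitochondrial share of vehicle 1, so these rates do not give the power for such differences.

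The 10 genes and all lists were chosen with earlier results of these data known. All 10 were named, with up to 5 called genes of each list, smallest adjusted p first, and a fixed set of always named genes (Apoc2, Apoc4, Clu, Mttp, Hnf4a, Ppargc1a and Creb3l3, and 1 more that is not reported here). Further lists held markers of hepatocytes, blood-forming cells, macrophages, endothelium, fibroblasts, bile duct, epithelium, fat, muscle and skin. Exon lengths and gene positions came from GENCODE M21. The labels do not state that tumours came from separate mice, so p-values measure the spread between these samples. The vehicle is methocel in the sample protocols and PBS in the series text. A level of 3 reads, the limit that a count of 0 allows, equalled 0.0658 to 0.392 CPM in embryo libraries and 0.0695 to 1.02 CPM in tumour libraries. No library pair of a group agreed within sampling noise.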

Additional observations from a re-analysis of the deposited data

Results flagged for a closer look

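Of 46 groups of 4 or 5 samples examined for a sample far from the others, 5 had one, and chance alone gives about 2.3. Apoa5 was 190 CPM in control liver 3, against 44.4 to 66.8 CPM in the other 4 controls. Apoa4 was 58.6 CPM in fusion liver 7, against 17.7 to 20.5 CPM in the other 3 fusion livers. Apoc1 was 3586 CPM in palbociclib tumour 2, against 2659 to 2763 CPM in the other 4. Apoc3 was 588 CPM in palbociclib tumour 4, against 892 to 967 CPM in the other 4. Mitochondrial genes took 46.6% of reads in vehicle tumour 1, against 1.24 to 4.12% in the other 4 vehicle tumours.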

How the results depend on the processing

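In embryos, Apoa4 kept its call in all 18 alternatives, and Apoa1 kept its direction in all 18 and its call in 10. The number of called members was 5 with the ribosomal split as a covariate, 4 in the low-share and 3 in the high-share libraries, 1 with Xist as a covariate and 1 to 3 on leaving out 1 liver. Over all genes the counts were 4397 with the split (32.7% of those tested), 2950 in the low-share (21.8%) and 2589 of 12930 in the high-share libraries, 1316 with Xist (9.74%) and 969 to 1581 on leaving out 1 liver (7.33 to 11.7%; 969 without control 3, 1107 without fusion 7, 987 without fusion 8), against 1704 (12.8%). Signs turned for Apoc3 (0.17 with limma-voom, 0.079 in low-share libraries), Apoe (0.040 with the split, 0.12 with Xist, 0.23 in high-share libraries, −0.11 to 0.11 on leaving out 1 liver), Apob (0.043 with Xist, 0.090 in high-share libraries) and Apoa5 (0.42 in high-share libraries, −0.54 to 0.19 on leaving out 1 liver). The causes were not tested. In tumours 0 members were called in all 20 alternatives, and all-gene counts were 0 except 8 with DESeq2 and 58 with limma library weights. Signs turned for Apoa1 (−0.0080 with edgeR, −0.020 with DESeq2, −0.14 without mitochondrial genes and vehicle 1, −0.16 to 0.33 on leaving out 1 tumour), Apoh (−0.067 without mitochondrial genes and vehicle 1, −0.092 to 0.39 on leaving out 1 tumour) and Apoe (−0.21 to 0.10 likewise). That joint alternative and the interaction of genotype with the split were chosen after seeing the data. With the tumour number as a replicate block, 0 members and 0 genes were called (460 at an unadjusted p under 0.05). Same-numbered tumours did not deviate together (correlations −0.32 to 0.00). Correlations of so few tumours cannot exclude that the numbers pair samples. Depth limits Apoc2 in embryos and vehicle 5, with 2955729 reads.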
